A study of Mus musculus with 33 samples.

Results

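The unfolded protein, integrated stress and heat-shock genes are a set of 38 genes that cells use to fold proteins and to answer protein damage. They were chosen by gene symbol from known roles and not by a measured value, though earlier results of these data were known. All 38 were found among the 38393 features of the deposited tables, each with 1 row per table. By role, 14 act in protein folding inside the endoplasmic reticulum (ER), 4 are ER stress sensors and factors, 4 serve ER-associated degradation, 9 belong to the integrated stress response and 7 to the cytosolic heat-shock response. They were followed across 33 libraries of polyadenylated RNA in 3 experiments, from cerebellum or cortex of mice that were all male, of strain C57Bl/6J and 1 month old. Cyrano is a long noncoding RNA that carries a site for the microRNA miR-7 and is known to direct its destruction. Experiment 1A held 4 cerebella with that site changed (CyrMut) and 3 wild-type (WT) cerebella. Experiment 1B held 4 cerebella of Cyrano-/- mice (CyrKO), 4 of Mir7a1-/-; Mir7b-/- mice (Mir7DKO) and 4 WT cerebella. Experiment 2 held 3 Mir7DKO and 4 WT cerebella, and 3 Mir7DKO and 4 WT cortices. Each experiment had its own WT libraries, and every comparison was made inside 1 experiment. The libraries are called biological replicates by the submitters and come from whole frozen tissue, so fewer cells of a type and less RNA per cell cannot be told apart.

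Proteins that enter the ER are folded there by chaperones, and an excess of unfolded protein is sensed by membrane proteins of the ER, which raise the transcription of chaperone and degradation genes in the unfolded protein response. The integrated stress response runs through phosphorylation of the translation factor eIF2, which favours translation of the factor ATF4 and thereby raises genes of amino acid supply. The heat-shock response is the cytosolic counterpart, in which heat-shock factors raise the cytosolic chaperones. Neurons and secretory cells make large amounts of membrane and secreted protein, and their ER chaperones are abundant at rest.

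A promoter sequence known from genes of the unfolded protein response is the ER stress element, at which ATF6 and NF-Y act. It was searched as CCAAT, any 9 bases, CCACG, on both strands, in RefSeq promoters of GRCm38.p6 that span 250 bases before to 50 after the start site. Of the 32 members with such a promoter, 8 held the element, against 39 of all 32851 promoters (0.119%). The 8 were 7 of 12 ER folding members with a promoter, namely Hspa5, Hsp90b1, Calr, Canx, Pdia6, Dnajc3 and Creld2, and the degradation gene Syvn1. The windows are shown because the 8 genes, Canx apart, moved together between libraries. Outside the 8, Pdia4, Manf and Hyou1 followed Hspa5 as closely (correlation 0.96, 0.95 and 0.94), and Dnajb9 did not (0.07). A relation between the element and this movement was not tested. Each window reads 5′ to 3′ on the strand of its gene, with the element in capitals. Hsp90b1 held a pair of elements on opposite strands.
Hspa5, chr2:34772017-34772051, plus strand: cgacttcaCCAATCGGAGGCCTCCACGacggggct
Hsp90b1, chr10:86705630-86705664, minus strand: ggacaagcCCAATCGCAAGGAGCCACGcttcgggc
Hsp90b1, chr10:86705525-86705559, minus strand: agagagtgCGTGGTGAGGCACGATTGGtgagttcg
Calr, chr8:84847067-84847101, minus strand: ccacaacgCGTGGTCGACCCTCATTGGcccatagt
Canx, chr11:50325792-50325826, minus strand: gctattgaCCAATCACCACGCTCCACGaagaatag
Pdia6, chr12:17266483-17266517, plus strand: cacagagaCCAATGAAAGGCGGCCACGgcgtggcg
Dnajc3, chr14:118937819-118937853, plus strand: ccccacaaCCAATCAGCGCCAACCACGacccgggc
Creld2, chr15:88819512-88819546, plus strand: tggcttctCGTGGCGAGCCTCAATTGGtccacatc
Syvn1, chr19:6046524-6046558, plus strand: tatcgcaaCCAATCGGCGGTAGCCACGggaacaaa
The element began 65 bases before the start site in Hspa5 and 162 bases before it in Calr.

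The second form of the element was searched as ATTGG, any base, CCACG, and so shares both its parts with the first form. It stood in Dnajb11 and Herpud1, against 12 of all promoters (0.0365%). The amino acid response element, at which ATF4 binds with a partner, was searched as TGATG, any base, AA, on both strands and stood in Trib3, Chac1, Asns and Herpud1. It is a common match, present in 1304 promoters (3.97%). The windows of the last 3 genes are given, with the element in capitals on the strand of the gene, because Chac1 and Asns moved apart from the ER genes between libraries and Herpud1 moved with them.
Chac1, chr2:119351041-119351064, plus strand: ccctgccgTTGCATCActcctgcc
Asns, chr6:7693217-7693240, minus strand: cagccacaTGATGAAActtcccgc
Herpud1, amino acid response element, chr8:94386309-94386332, plus strand: acggcgggTTGCATCAgcccgcac
Herpud1, ER stress element of the second form, chr8:94386369-94386395, plus strand: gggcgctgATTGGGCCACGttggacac
The heat shock element was searched as GAA, TTC and GAA (or TTC, GAA and TTC) with any 2 bases between. It was found in 1 member, the cytosolic chaperone Hsph1, against 0.603% of promoters. Only 5 of the cytosolic heat-shock members had a promoter in the search, and only exact matches within that span were counted. A gene with no match may still hold the element. The UPR element of XBP1, TGACG followed at once by TGG, was found in 0 members, against 0.676% of promoters. A match describes letters in the window and shows no binding.

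Library totals ran between 6.89 and 24.94 M counts. Cyrano averaged 79.2 ± 6.28 CPM (normalised counts per M counts of the library, where M stands for mega) in CyrKO cerebella and 1830 ± 167 CPM in the WT cerebella of experiment 1B (SD, n = 4 each). Cdr1as, known as a circular RNA that miR-7 binds, had 111 ± 11.6 CPM in CyrMut and 1120 ± 107 CPM in WT cerebella of experiment 1A (SD, n = 4 and 3) by counts at its gene. The miR-7 genes gave few counts: Mir7-1 had 1 to 11 per group, and Mir7b had 17, 12 and 2 in Mir7DKO cerebella of experiments 1B and 2 and Mir7DKO cortices, against 0 in every WT group. Counts at Mir7b were thus higher in the group labelled as lacking it. The labels do not say whether the counted stretch lies in the deleted part, so these counts do not check the deletion, and Mir7DKO below stands for the libraries labelled so. Summed CPM of 8 markers of cerebellar neurons was 6340 to 7390 in cerebellar libraries and 194 to 209 in cortical ones, and 7 markers of cortical neurons showed the reverse order.

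Levels of the members in WT cerebella of experiment 2 spread over a wide range when divided by exon length. The lectin chaperones Calr and Canx, which retain unfinished glycoproteins, stood highest at 108 ± 1.96 and 98.5 ± 2.64 CPM per kb (SD, n = 4), with the ER HSP90 protein Hsp90b1 at 97.3 ± 3.69 CPM per kb. Hspa5, the main HSP70 chaperone of the ER (also called BiP), stood at 47.9 ± 2.56 CPM per kb, beside the factor Atf4 at 48.5 ± 0.863 and the cytosolic Hspa8 at 49.7 ± 3.52 CPM per kb. Canx and Hsp90b1, and likewise Hspa5, Atf4 and Hspa8, did not differ beyond their spread. At the other end stood the stress-inducible genes. Trib3, a pseudokinase raised by ATF4, was at 0.383 ± 0.0765 CPM per kb, and the inducible HSP70 gene Hspa1a at 0.557 ± 0.268 CPM per kb. Hspa1a and Hspa1b are near-identical copies, and the labels do not say how reads that match both were counted, so their values are uncertain.

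Between replicate libraries of the same genotype, 12 of the 14 ER folding genes varied more than the median gene, and they varied together. Hspa5 was the clearest case. In experiment 1A it had 249, 419, 493 and 218 CPM in the 4 CyrMut cerebella, against 463, 331 and 234 CPM in the 3 WT cerebella. In experiment 1B it had 581, 382, 324 and 266 CPM in CyrKO cerebella and 231, 481, 346 and 222 CPM in Mir7DKO cerebella, against 482, 518, 374 and 255 CPM in WT cerebella. Each of these 5 groups held a library at 218 to 266 CPM and a library at 463 to 581 CPM, and the groups overlapped. The WT groups of experiments 1A and 1B may not be independent of each other, as set out below. In experiment 2 the spread was small: 266, 219 and 233 CPM in Mir7DKO cerebella against 217, 206, 195 and 193 CPM in WT cerebella, and 192, 185 and 257 CPM in Mir7DKO cortices against 155, 153, 171 and 182 CPM in WT cortices. The highest library exceeded the lowest of its group 1.98- to 2.26-fold in the 5 groups of experiments 1A and 1B, and 1.12- to 1.39-fold in the 4 groups of experiment 2.

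**Figure D1:**
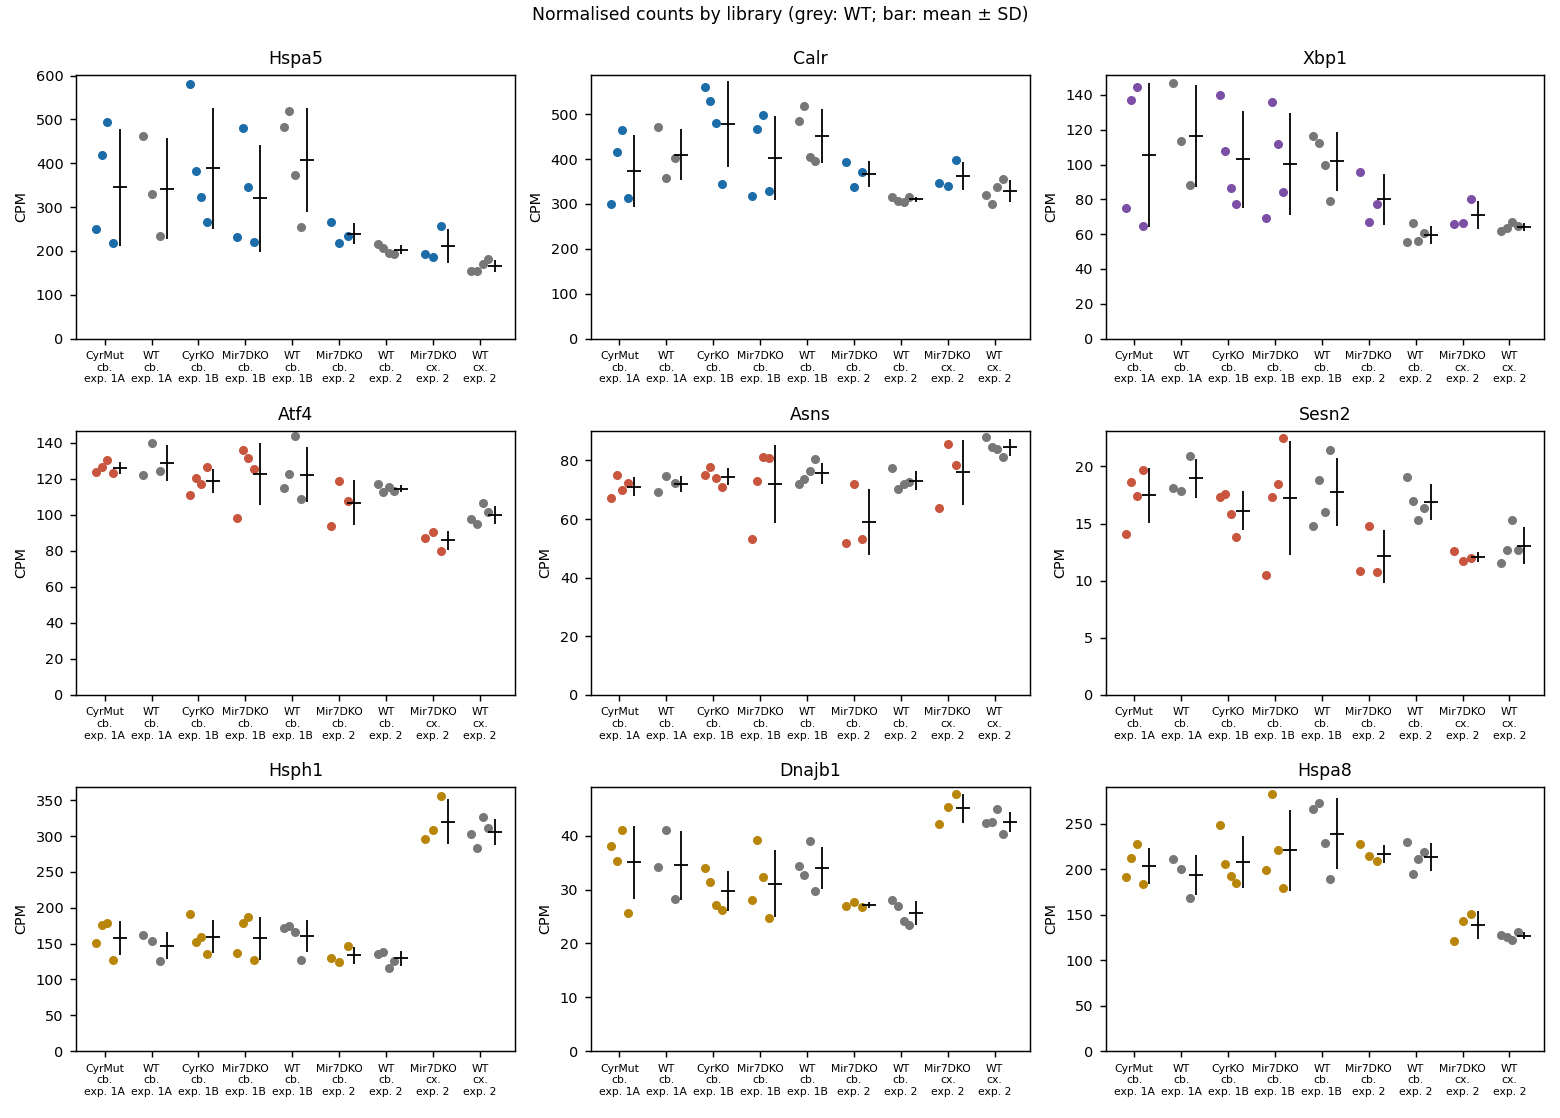
Normalised counts of selected members in CPM (vertical axis) for each library of the 9 groups (horizontal axis), with grey points for WT and a bar for mean ± SD. Hspa5 ranges between 218 and 581 CPM in cerebella of experiments 1A and 1B within mutant and WT groups alike, and between 193 and 266 CPM in cerebella of experiment 2.

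The within-group standard deviation (SD) of log2 CPM for Hspa5 was 0.54 in experiment 1A, 0.49 in experiment 1B and 0.15 in experiment 2, against a median over 9788 genes of 0.10, 0.12 and 0.10. Over all libraries its SD was 0.40, and 1.06% of those genes had a larger one. Sdf2l1, a partner of ER J-domain proteins, was at 0.82, 0.66 and 0.36 across experiments 1A, 1B and 2 at a mean of only 7.88 CPM. Manf, a small secreted factor that binds Hspa5, was at 0.51, 0.45 and 0.19. The disulfide isomerase Pdia4 was at 0.47, 0.43 and 0.16. Not every ER folding gene did so: the J-domain protein Dnajb9 was at 0.08, 0.10 and 0.11, and Canx at 0.11, 0.16 and 0.04.

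The libraries that were high for Hspa5 were high for nearly all ER folding genes. In CyrMut cerebella, replicate 3 had the highest Hspa5 and also the highest level of 13 of the 13 other ER folding members. In the WT cerebella of experiment 1A, replicate 1 was highest for Hspa5 and for the same 13. In experiment 1B the library with the highest Hspa5 was also highest for 10 of 13 in CyrKO, 9 of 13 in Mir7DKO and 11 of 13 in WT cerebella. WT cerebella of experiment 2, where Hspa5 hardly varied, shared the library for 6 of 13. Hyou1, an ER protein of the HSP70 family that helps Hspa5 release its clients, had 85.2, 132, 145 and 84.9 CPM in the 4 CyrMut cerebella, against 142, 108 and 90.3 CPM in the WT cerebella of experiment 1A. Pdia4 had 44.2, 68.2, 81.8 and 39.4 CPM in the same CyrMut cerebella, against 70.5, 47.9 and 40.6 CPM in the WT cerebella. Within both groups of experiment 1A the 2 genes followed the order of Hspa5 library by library.

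**Figure D2:**
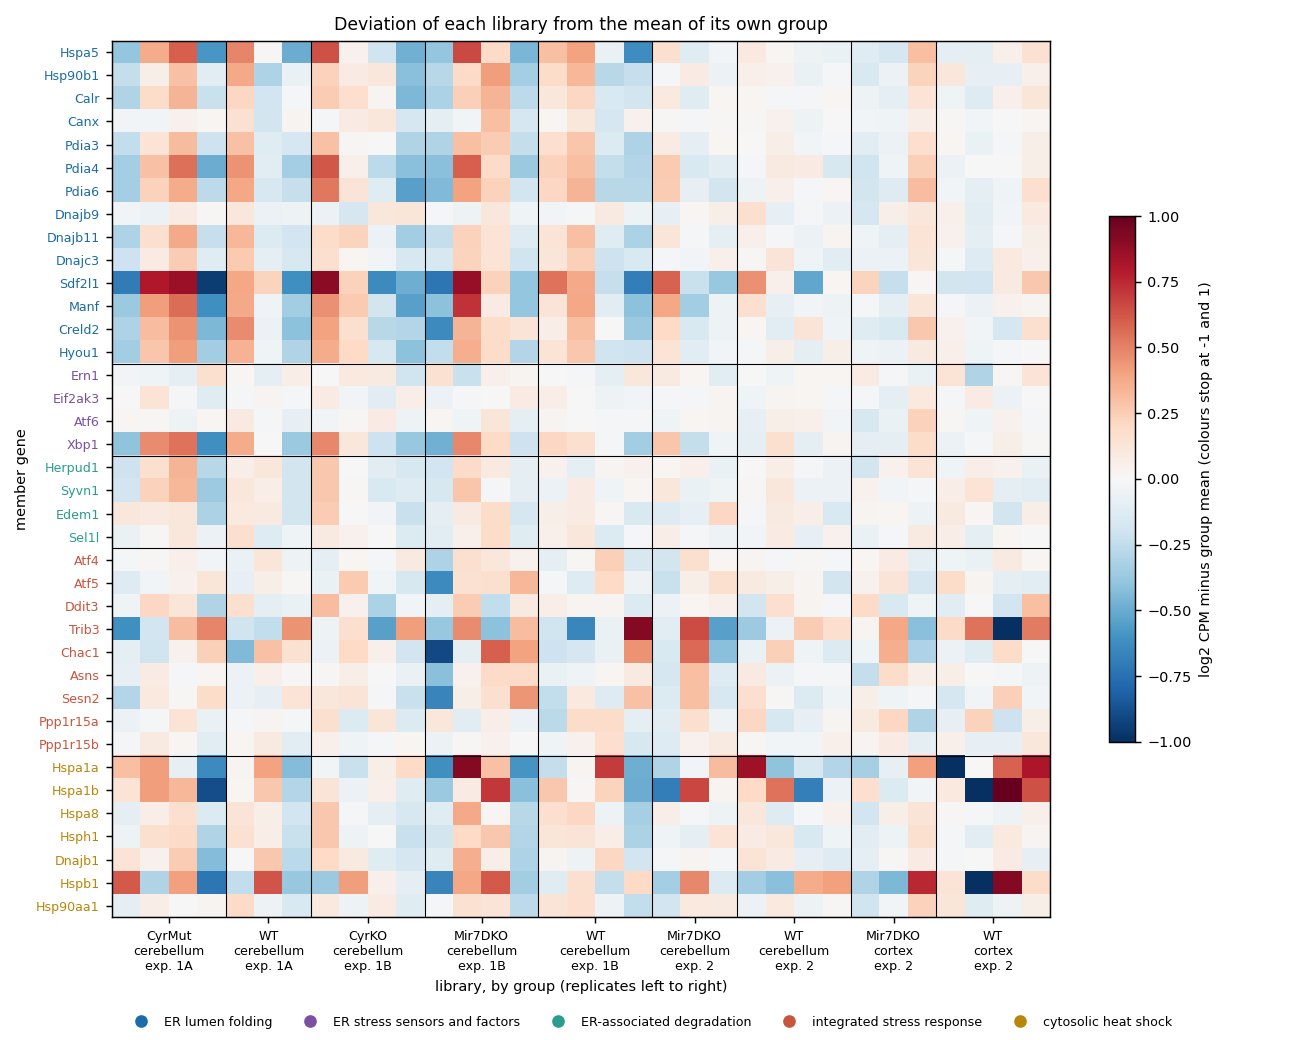
Deviation of each library (columns, by group) from its group mean in log2 CPM (colour, limited to -1 and 1) for the 38 members (rows, by role). Columns of experiments 1A and 1B are of 1 colour over most ER folding rows, as in CyrMut replicate 3, where all 14 ER folding members are highest of their group.

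Each library's deviation from its group mean was correlated between members over the 33 libraries. This leaves 24 degrees of freedom and takes out genotype, tissue and experiment. WT replicates 1, 2 and 3 of experiment 1A resembled replicates 2, 3 and 4 of experiment 1B in marker sums. Erythrocyte markers gave 452, 373 and 1692 CPM against 406, 324 and 1776 CPM. Choroid plexus markers gave 383, 41.0 and 40.0 CPM against 402.5, 36.7 and 31.8 CPM. Hspa5 had the same order in both, at 463, 331 and 234 CPM against 518, 374 and 255 CPM. Whether these libraries share animals is stated by no label and was not tested. If they do, they are not independent, and the degrees of freedom and permutation p-values overstate the evidence. The agreement between the WT groups, and between experiments 1A and 1B, would then be overstated as well. The median Pearson r within the ER folding genes was 0.86, against 0.00 between all 15551 genes tested, of which the 90th percentile was 0.32. Hspa5 and Pdia4 had r = 0.96 (Spearman rho 0.94), with r = 0.99, 0.97 and 0.77 within experiments 1A, 1B and 2 and 0.95 without the 2 libraries farthest from the median. Hspa5 and Manf had r = 0.95 (rho 0.94), with 0.99, 0.96 and 0.69 by experiment and 0.94 without those 2 libraries. Of 17 pairs named by role, 12 passed a permutation test within groups with Benjamini-Hochberg adjustment, and the 5 strongest had an adjusted p of 3.4e-05, the smallest that 100000 permutations can give here. Weakest among the ER folding pairs was Hspa5 with Hsp90b1, at r = 0.77 (rho 0.75, permutation adjusted p = 0.00102), with 0.74, 0.81 and 0.57 by experiment and 0.76 without 2 libraries. Without experiment 1B it was 0.70 and no longer passed, with a permutation adjusted p of 0.0615. Canx and Dnajb9 stood apart, with r = 0.33 and 0.07 to Hspa5. Since the other 12 share this variation, a count of ER members in a comparison is not a count of separate readings.

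Of the 4 sensors and factors, Xbp1 went with the chaperones and the 3 sensors did not. Xbp1 encodes the factor whose mRNA is cut by the sensor Ern1 (IRE1) under ER stress; these counts do not tell the spliced form. Xbp1 had 75.3, 137, 144 and 64.9 CPM in CyrMut cerebella, against 147, 114 and 88.2 CPM in WT cerebella of experiment 1A, and r = 0.94 with Hspa5. Its SD was 0.51, 0.36 and 0.15 across the experiments. By contrast Eif2ak3 (PERK), the kinase that phosphorylates eIF2, had an SD of 0.09, 0.07 and 0.06 and r = 0.29 with Hspa5, Atf6 had r = 0.21 and Ern1 r = -0.30. The median r among the 4 was 0.08.

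Genes of ER-associated degradation, by which misfolded proteins are taken out of the ER and destroyed, went with the chaperones in part. Their median r with ER folding genes was 0.66 and among themselves 0.50. Herpud1, a membrane protein of the degradation complex, had r = 0.75 with Hspa5 (rho 0.66, permutation adjusted p = 0.00149), with 0.93, 0.70 and 0.35 within experiments 1A, 1B and 2 and 0.69 without 2 libraries. Syvn1, the ubiquitin ligase Hrd1, had r = 0.77, Sel1l, its partner, 0.69, and Edem1, which hands over misfolded glycoproteins, 0.66. Sel1l varied little, with an SD of 0.12, 0.12 and 0.07, so a small shift followed the large one of Hspa5.

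The cytosolic chaperones Hsph1 and Hspa8 followed the ER chaperones. Hsph1 (HSP110), a nucleotide exchange factor of HSP70, had 151, 175, 179 and 127 CPM in CyrMut cerebella, against 162, 153 and 126 CPM in WT cerebella of experiment 1A. It had 191, 153, 159 and 136 CPM in CyrKO and 137, 179, 187 and 127 CPM in Mir7DKO cerebella of experiment 1B, against 172, 174, 167 and 127 CPM in WT cerebella. In each of the 5 groups the library lowest for Hspa5 was also lowest for Hsph1. In experiment 2 this held in Mir7DKO cerebella and WT cortices and not in the other groups. The correlation of Hsph1 with Hspa5 was 0.89 (rho 0.89, permutation adjusted p = 3.4e-05), with 0.95, 0.92 and 0.64 by experiment and 0.87 without 2 libraries. With Hspa8, the constitutive cytosolic HSP70, Hsph1 had r = 0.78 (rho 0.75, permutation adjusted p = 0.000191), with 0.94, 0.87 and 0.19 by experiment and 0.74 without 2 libraries. Dnajb1, an HSP40 gene that drives HSP70, had 38.1, 35.4, 41.2 and 25.6 CPM in CyrMut cerebella, against 34.2, 41.1 and 28.3 CPM in WT cerebella of experiment 1A. In experiment 1B it had 34.0, 31.5, 27.1 and 26.1 CPM in CyrKO and 28.2, 39.3, 32.3 and 24.8 CPM in Mir7DKO cerebella, against 34.4, 32.7, 39.2 and 29.7 CPM in WT cerebella. Its lowest library was again the library lowest for Hspa5 in each of the 5 groups, and in experiment 2 in WT cerebella alone. Its highest library differed from that of Hspa5 in the WT groups of experiments 1A and 1B. With Dnajb1, Hsph1 had r = 0.76 (rho 0.68, permutation adjusted p = 0.000306), with 0.82, 0.80 and 0.57 by experiment and 0.71 without 2 libraries. The low genes Hspa1a, Hspa1b and Hspb1 had r = 0.42, 0.35 and 0.23 with Hspa5.

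The integrated stress response genes were not part of this shared variation. Their median r with ER folding genes was 0.06, and Atf4 had r = 0.14 with Hspa5 (rho 0.05, permutation adjusted p = 0.647). Atf4 mRNA stood at 124, 127, 130 and 123 CPM in CyrMut cerebella, against 122, 140 and 124 CPM in WT cerebella of experiment 1A. In experiment 1B it had 111, 120, 117 and 127 CPM in CyrKO and 97.9, 136, 132 and 125 CPM in Mir7DKO cerebella, against 115, 122, 144 and 109 CPM in WT cerebella. The groups overlapped, and ATF4 is known to be set mainly by translation, which these counts do not measure. Within the arm a smaller group moved together around Asns, which makes asparagine. Asns had r = 0.76 with Chac1, which breaks down glutathione, 0.71 with Sesn2, a sensor of leucine, and 0.65 with the factor Atf5. These relations were chosen after their values were seen. Their r by experiment or without single libraries was not taken. Mir7DKO replicate 1 of experiment 1B was the lowest library for each, with log2 deviations of -0.42 (Asns), -0.90 (Chac1), -0.66 (Sesn2) and -0.64 (Atf5). With Atf4, Asns had r = 0.55 (rho 0.33), which did not pass (permutation adjusted p = 0.0658). It passed without WT cerebellum replicate 4 of experiment 1B or Mir7DKO cortex replicate 1 or 3 (permutation adjusted p = 0.0369, 0.0456 and 0.0452), and without Mir7DKO cerebellum replicate 1 of experiment 1B r was 0.26 (permutation adjusted p = 0.517). Ddit3 (CHOP), a factor of prolonged ER stress, leaned to the chaperones instead, at r = 0.55 with Hspa5, and had r = 0.07 with Atf4 (permutation adjusted p = 0.779). Asns was even in most groups, at 67.0 to 75.0 CPM in CyrMut against 69.2 to 74.5 CPM in WT cerebella of experiment 1A. Single mutant libraries were low. Mir7DKO replicate 1 of experiment 1B had 53.1 CPM, beside 72.9, 81.2 and 80.8 CPM in the other 3 and 72.1 to 80.3 CPM in WT.

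**Figure D3:**
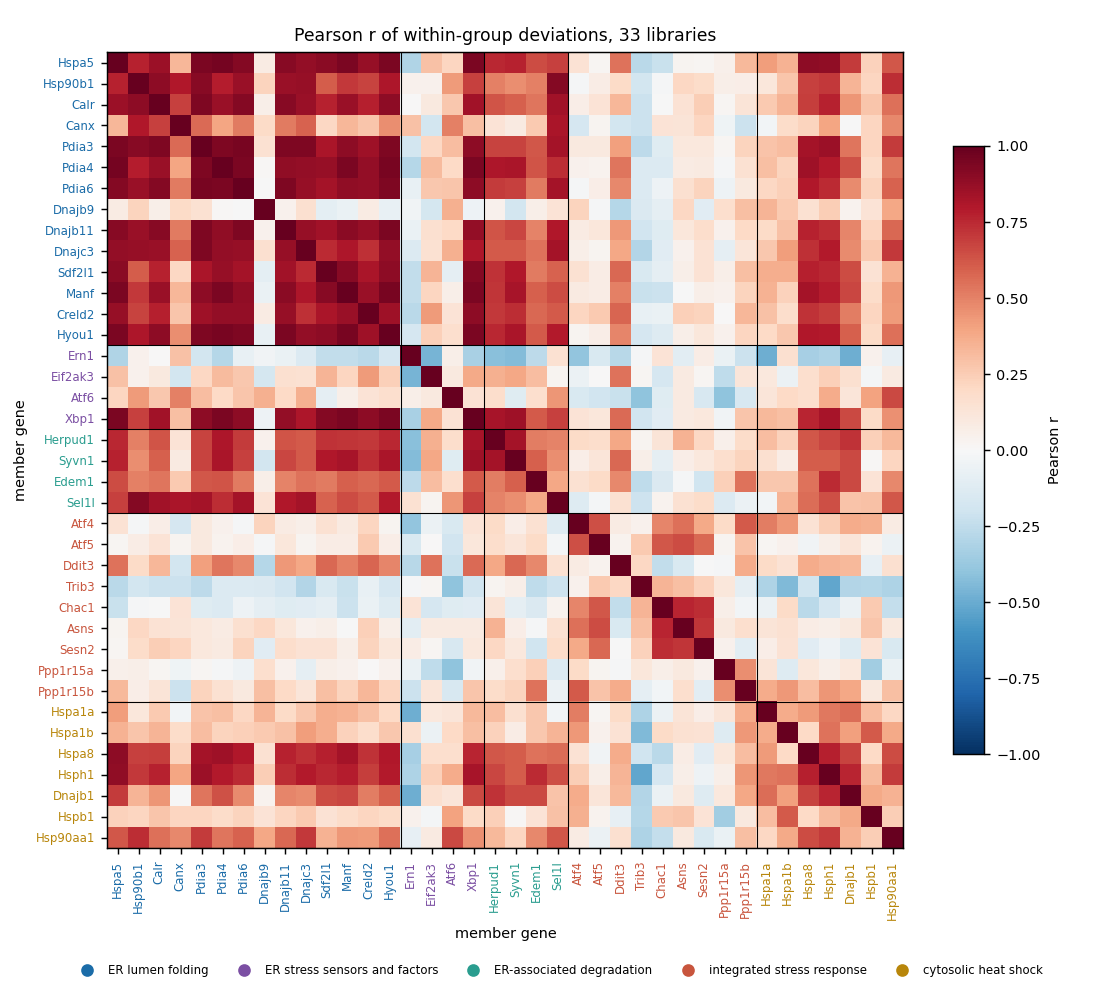
Pearson r (colour) between the within-group deviations of every pair of the 38 members over 33 libraries, with members ordered by role on both axes and black lines between roles. The ER folding block is dark apart from Canx and Dnajb9, Xbp1, Hspa8 and Hsph1 join it (r = 0.94, 0.90 and 0.89 with Hspa5), and Chac1, Asns and Sesn2 form a separate small block.

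Among 9787 genes with a mean of at least 10 CPM, the 7 whose deviations were most like those of Hspa5 were all members: Pdia4, Manf, Pdia3, Xbp1, Hyou1, Pdia6 and Dnajb11 (r = 0.96 to 0.91). Of the 50 most alike, 12 were members, of 31 members ranked. For Hsph1 the 5 most alike were Hspa5, Gcnt1, Snx27, the HSP70-HSP90 organiser Stip1 and P4ha1 (r = 0.89 to 0.86), and 10 of the top 50 were members. For Atf4 they were Nudt3, Ube2d3, Gja1, Bex1 and Marcks (r = 0.83 to 0.71), none a member, and 2 of the top 50 were. Hspa5 had r = 0.19 with total counts (rho 0.15, permutation adjusted p = 0.696) and r = 0.16 with the summed markers of choroid plexus (rho 0.20, permutation adjusted p = 0.705). Of 33 relations of Hspa5, Hsph1 and Asns with marker lists or depth, none passed by Pearson r, and 2 passed by rank. These were Hspa5 with the 8 markers of cerebellar neurons (r = -0.57, permutation adjusted p = 0.0581, and rho = -0.58, permutation adjusted p = 0.048) and Asns with 6 astrocyte markers (r = 0.47, permutation adjusted p = 0.0548, and rho = 0.61, permutation adjusted p = 0.0201). By experiment, 1A, 1B and 2, r was -0.80, -0.60 and -0.27 for the first and 0.91, 0.58 and 0.30 for the second, and without the 2 farthest libraries -0.50 and 0.53. The part of cell composition in the shared variation was not tested.

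Each mutant was then set against the WT libraries of its experiment. The question was whether a changed miR-7 site in Cyrano, the loss of Cyrano or the loss of Mir7a1 and Mir7b moved these genes. A gene was tested where its counts passed a filter on low values, which Hspb1 failed in all 5 comparisons, Trib3 in CyrKO and in Mir7DKO cortex, and Hspa1b in Mir7DKO cerebellum of experiment 2. No member passed the test in any of the 5 comparisons (edgeR quasi-likelihood test across all genes, Benjamini-Hochberg adjusted p under 0.05). In CyrMut cerebella 0 of 37 members tested were called, against 0.00673% of all 14866 genes tested, and 0 had an unadjusted p under 0.05, against 4.98% of all genes. DESeq2 also called 0, against 0.0269% of all genes. In no member did the CyrMut and WT libraries separate, against 2.33% of all genes that were higher in every CyrMut library and 3.18% that were lower. The median log2 fold change of the members was -0.02, and 0 over all genes. Hspa5 averaged 345 ± 133 CPM in CyrMut and 342 ± 115 CPM in WT cerebella (SD, n = 4 and 3), a log2 fold change of 0.02 with a standard error (SE) of 0.279. The widest positive value was that of Hspa1b, at 0.62 (SE 0.305, edgeR adjusted p = 0.944), on 2.04 ± 0.721 against 1.29 ± 0.265 CPM. All 6 cytosolic heat-shock members tested had positive values, of 0.02 to 0.62, and none had an unadjusted p under 0.05.

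In CyrKO cerebella 0 of 36 members tested were called by edgeR and 0 by DESeq2, against 0.022% of all genes by either tool. Only 1 member had an unadjusted p under 0.05, against 7.35% of all genes. This was Canx, with 560, 601, 612 and 507 CPM in CyrKO cerebella, against 511, 546, 448 and 519 CPM in WT cerebella. The groups overlapped, and the log2 fold change was 0.18 (SE 0.0742, edgeR adjusted p = 0.677). No member separated the groups, against 1.74% of all genes for higher and 2.31% for lower. ER folding members divided evenly, with 7 positive and 7 negative values between -0.38 (Sdf2l1) and 0.22 (Hsp90b1).

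The Mir7DKO cerebella of experiment 1B share their WT libraries with CyrKO. Here 0 of 37 members tested were called by edgeR and 0 by DESeq2, against 0.00713% of all genes by edgeR and 0.0357% by DESeq2. Dnajb9 was the only member with an unadjusted p under 0.05, against 3.68% of all genes, and the only one whose groups did not overlap, against 1.39% of all genes for higher and 1.2% for lower. It had 44.5, 43.7, 48.8 and 44.1 CPM in Mir7DKO cerebella, against 39.3, 39.9, 42.9 and 38.9 CPM in WT cerebella. The lowest Mir7DKO library lay just above the highest WT library, and the log2 fold change was 0.17 (SE 0.0644, edgeR adjusted p = 1). The other 13 ER folding members had negative values and overlapping groups. Hspa5 was at -0.35 with an SE of 0.249, from 320 ± 121 CPM in Mir7DKO and 407 ± 119 CPM in WT cerebella (SD, n = 4 each). The median over the 14 was -0.15, in 1 direction for genes that vary together.

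In the Mir7DKO cerebella of experiment 2 the ER chaperones had mostly positive values and the integrated stress genes mostly negative ones, short of the threshold in edgeR. Of 36 members tested, 0 were called, against 0.198% of all genes, and 13 had an unadjusted p under 0.05, against 6.78% of all genes. Of the 13, 10 were positive and 3 negative. DESeq2 called 2, Xbp1 and Calr, each with an adjusted p of 0.0189, against 23 of all genes (0.163%). The authors' deposited table has the same 2 below 0.05, with adjusted p-values of 0.0221 for Xbp1 and 0.0118 for Calr.

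Xbp1 had 96.0, 67.1 and 77.1 CPM in Mir7DKO cerebella, against 55.6, 66.2, 55.8 and 60.6 CPM in WT cerebella. The lowest Mir7DKO library lay just above the highest WT library, and the log2 fold change was 0.42 (SE 0.09, edgeR adjusted p = 0.056). Calr had 394, 337 and 370 CPM in Mir7DKO cerebella, against 315, 305, 305 and 315 CPM in WT cerebella, without overlap, with a log2 fold change of 0.24 (SE 0.0528, edgeR adjusted p = 0.0727). For Hspa5, with the levels given above, the value was 0.24 (SE 0.0626, edgeR adjusted p = 0.196), again without overlap. Pdia3 and Pdia4, both disulfide isomerases, also did not overlap, at 0.18 and 0.32 (edgeR adjusted p = 0.325 and 0.277). Manf had 40.3, 24.1 and 29.6 CPM in Mir7DKO cerebella, against 27.3, 23.2, 24 and 23.6 CPM in WT cerebella, overlapping in replicate 2, at 0.35 (edgeR adjusted p = 0.45). In all, 5 members were higher in every Mir7DKO library, against 3.61% of all genes. Among the 14 ER folding members 9 had an unadjusted p under 0.05, all positive, and the median of the 14 was 0.18, against 0 over all genes. Replicate 1 was the highest Mir7DKO library for Hspa5 and for 10 of the other 13.

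On the other side Asns had 51.7, 71.9 and 53.3 CPM in Mir7DKO cerebella, against 77.6, 70.3, 71.9 and 72.8 CPM in WT cerebella. Replicates 1 and 3 were low and replicate 2 lay within the WT range, and the log2 fold change was -0.31 (SE 0.0856, edgeR adjusted p = 0.209). Sesn2 had 10.9, 14.8 and 10.7 CPM in Mir7DKO cerebella, against 19.0, 17.0, 15.3 and 16.4 CPM in WT cerebella. It was lower in every Mir7DKO library, as 3.03% of all genes were, with a log2 fold change of -0.48 (SE 0.122, edgeR adjusted p = 0.156). Chac1 had 1.86, 3.12 and 1.52 CPM in Mir7DKO cerebella, against 3.24, 4.03, 3.31 and 3.08 CPM in WT cerebella, with the same replicates low and 1 overlapping, at -0.65 (SE 0.246, edgeR adjusted p = 0.532). Among the 9 integrated stress members 8 had negative values, with a median of -0.17. Asns, Chac1 and Sesn2 varied together between libraries, so this is not a count of separate readings. Among 19 tested of 23 further genes of the integrated stress response, 18 were negative, and whether they vary together was not tested. Of the 19, 7 had an unadjusted p under 0.05 (6 negative and 1 positive), against 6.78% of all genes. By edgeR 0 were called and by DESeq2 1, against 0.198% and 0.163% of all genes. The 1, named after its values were seen, was Slc7a5, a carrier of large neutral amino acids, at 62.4 ± 8.65 CPM in Mir7DKO against 78.4 ± 1.91 CPM in WT cerebella (SD, n = 3 and 4), a log2 fold change of -0.33 (DESeq2 adjusted p = 0.044, edgeR adjusted p = 0.0766).

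The 3 Mir7DKO cerebella of experiment 2 differed in their choroid plexus markers, a secretory epithelium rich in ER. The 13 markers summed to 730, 472 and 33.3 CPM in replicates 1, 2 and 3, against 35.8 to 41.1 CPM in the WT cerebella. With that sum as a covariate, 8 members had an unadjusted p under 0.05, 7 of them among the 13 above. Since replicates 1 and 2 had high sums and no WT library did, values adjusted in this way rest largely on replicate 3. The fit cannot separate genotype from choroid plexus content in the other Mir7DKO libraries. Calr stood at 0.24, Xbp1 at 0.34 and Hspa5 at 0.18, all with edgeR adjusted p between 0.236 and 0.529, while Pdia6 went to -0.01. Replicate 3, with markers at the WT level, had 233 CPM of Hspa5, 370 CPM of Calr and 77.1 CPM of Xbp1, each above every WT library. This is largely the same reading as the covariate values and not a separate one. Asns was low in replicates 1 and 3, with 730 and 33.3 CPM of the markers.

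Leaving out Mir7DKO replicate 2 brought the calls to 6, namely Hspa5, Calr, Manf, Xbp1, Asns and Sesn2, with an edgeR adjusted p of 0.00256 to 0.039, and those over all genes to 67 (0.468%), against 28 with every library. Leaving out replicate 3 gave 1, Xbp1 (edgeR adjusted p = 0.0412), and 70 over all genes (0.488%). Leaving out replicate 1 or any WT library gave 0.

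In Mir7DKO cortex 0 of 36 members tested were called by edgeR and 0 by DESeq2, against 0.0436% of all genes by either tool, and 7 had an unadjusted p under 0.05, against 5.77% of all genes. Of these 4 were positive, Hspa5, Manf, Pdia4 and Hspa1a, and 3 negative, Atf4, Chac1 and Asns. Hspa5, with the levels given above, was higher in every Mir7DKO cortex, with a log2 fold change of 0.33 (SE 0.087, edgeR adjusted p = 0.606). With no filter on low values it was called (edgeR adjusted p = 3.83e-06), as were 0.206% of all genes. Manf had 33.6, 31.9 and 37.3 CPM in Mir7DKO cortices, against 29.2, 28.2, 30.1 and 30.0 CPM in WT cortices, and was the other member higher in every library, as 5.25% of all genes were. Atf4 had 87.0, 90.5 and 79.8 CPM in Mir7DKO cortices, against 97.4, 95.1, 106 and 101 CPM in WT cortices. It was the only member lower in every library, as 2.01% of all genes were, with a log2 fold change of -0.25 (SE 0.0617, edgeR adjusted p = 0.579). Choroid plexus markers summed to 17.6 to 20.7 CPM in Mir7DKO cortices and 17.2 to 410 CPM in WT cortices, so here the higher sums were on the WT side. Sums of 6 endothelial and 6 microglia markers were higher in every Mir7DKO cortex, at 284 to 301 and 281 to 291 CPM, against 254 to 270 and 255 to 276 CPM in WT cortices, and their part in the members' values was not tested. Replicate 3 was the highest Mir7DKO cortex for Hspa5 and for 12 of the other 13 ER folding members.

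**Figure D4:**
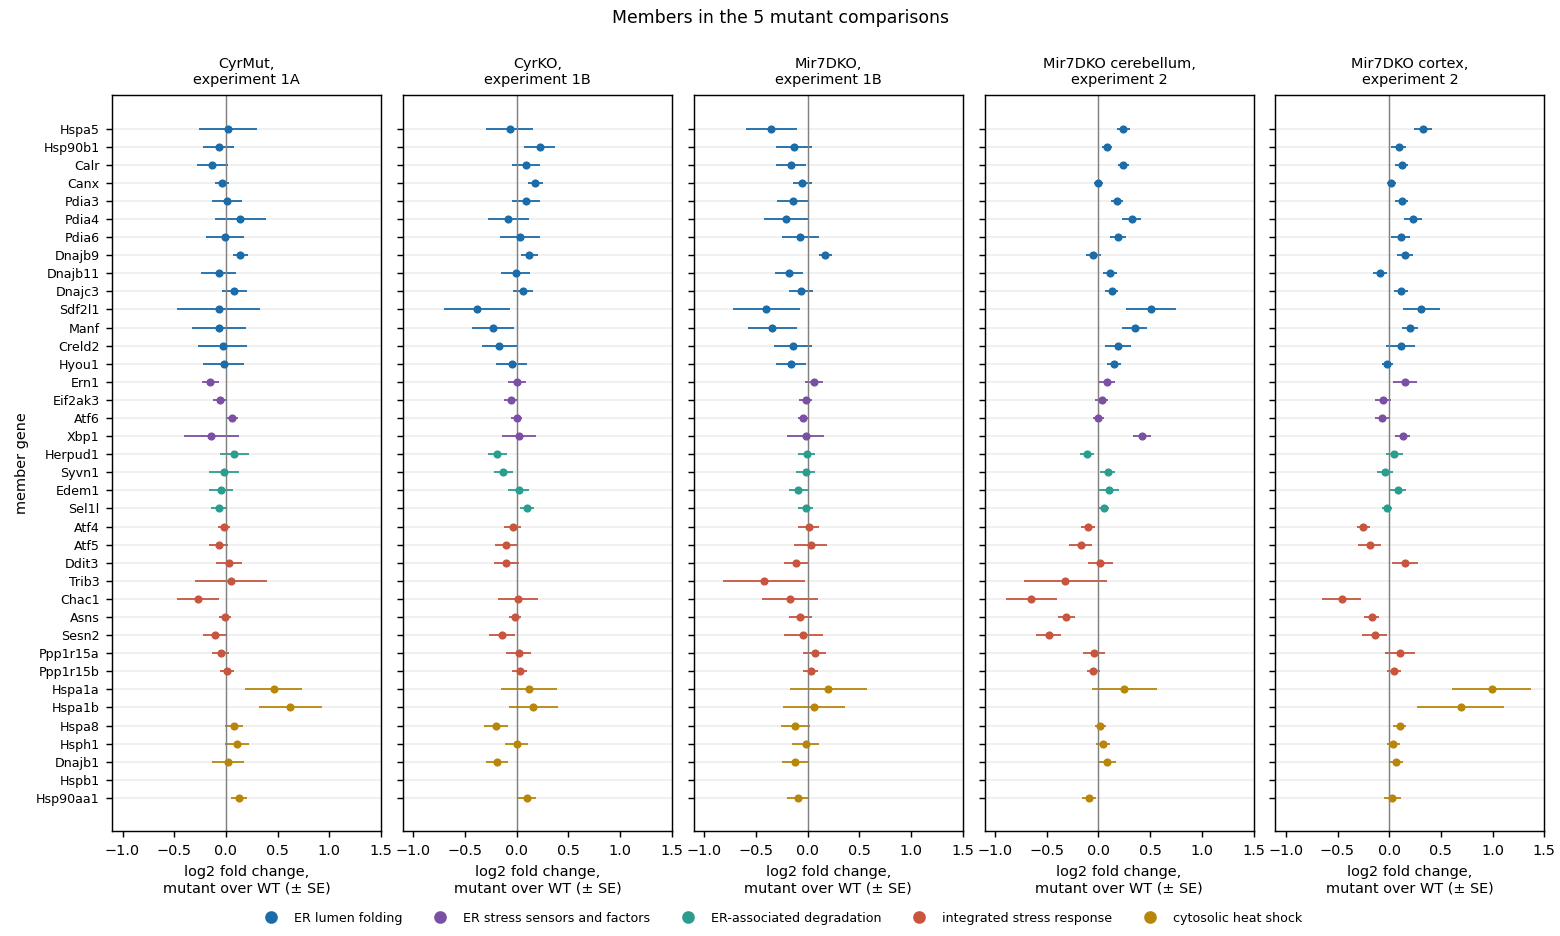
Log2 fold change of mutant over WT with its SE (horizontal axis) for the members tested (rows, coloured by role) in each of the 5 comparisons (panels); none has an edgeR adjusted p under 0.05. SEs of the ER folding genes are wide in experiments 1A and 1B (0.279, 0.229 and 0.249 for Hspa5) and narrow in experiment 2 (0.0626 in cerebellum and 0.087 in cortex).

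The precision followed the shared variation. The SE for Hspa5 was 0.279 in CyrMut, 0.229 in CyrKO and 0.249 in Mir7DKO of experiment 1B, against 0.0626 and 0.087 in experiment 2. The authors' deposited DESeq2 SEs for Hspa5 were wider, at 0.404, 0.333 and 0.340, against 0.0666 and 0.143, in the same order. Whether the Mir7DKO effect differed was tested directly. Between cerebellum and cortex 0 of 36 members were called by edgeR and 0 by DESeq2 (0.155% of all genes by edgeR and 0.0806% by DESeq2), and 2 had an unadjusted p under 0.05 (4.92% of all genes). These were Xbp1, by 0.30 (SE 0.128, edgeR adjusted p = 0.987), and the ER J-domain protein Dnajb11, by 0.21 (SE 0.097, edgeR adjusted p = 0.988), both more positive in cerebellum. Between the cerebella of experiment 2 and those of experiment 1B 0 of 38 members were called by edgeR and 0 by DESeq2 (0% of all genes by edgeR and 0.0206% by DESeq2), and 3 had an unadjusted p under 0.05 (3.83% of all genes). These were Calr, by 0.41 (SE 0.175), Manf, by 0.69 (SE 0.318), and Dnajb9, by -0.22 (SE 0.0976), experiment 2 minus 1B, each with an edgeR adjusted p of 0.999. Hspa5 differed by 0.59 (SE 0.304). None of the 77 further pathway genes listed passed in a mutant comparison by edgeR.

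The microRNA of the genes named in the Mir7DKO genotype acts through its seed, bases 2 to 8, shown in capitals below. The 2 mature forms share it. Mature miR-7a-5p also comes from Mir7-2 on chromosome 7, which that genotype does not name.
mmu-miR-7a-5p: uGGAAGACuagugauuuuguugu
mmu-miR-7b-5p: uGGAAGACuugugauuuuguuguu
Sites in 3′ UTRs (the transcript part after the coding region, GENCODE annotation of GRCm38) were counted as a match to bases 2 to 8, or to bases 2 to 7 followed by A. They were found in 8 of 38 members (21.1%), against 4053 of 14167 genes tested (28.6%). The members' 3′ UTRs were shorter, with a median of 949 bases against 1397. The whole seed was matched in 4 of them, Calr, Dnajc3, Syvn1 and Edem1 (10.5% of members, against 15.3% of genes tested), and the shorter form alone in the other 4, Pdia3, Manf, Hyou1 and Atf6. The sites of Calr and of Dnajc3 (the ER J-domain protein that restrains PERK) are shown with the match in capitals, as examples of the whole match without and with the A.
Calr: agttttgtGTCTTCCctattgtgt
Dnajc3: gggagaccGTCTTCCAggaaactt
In Mir7DKO over WT, Calr was at -0.16 in experiment 1B, 0.24 in cerebella of experiment 2 and 0.12 in cortices, and Dnajc3 at -0.06, 0.13 and 0.11. Syvn1 was at -0.02, 0.09 and -0.04, and Edem1 at -0.09, 0.10 and 0.08. The median of the 8 members with a site was -0.12, 0.14 and 0.10 in the same order, and that of the members tested without one -0.05, 0.03 and 0.08. None passed the threshold in edgeR, and the difference between members with and without a site was not tested.

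WT cerebella were set against WT cortices in experiment 2, and here most members differed. Of 35 tested, 12 were higher and 14 lower in cerebellum (edgeR adjusted p under 0.05), against 37.3% of all genes higher and 37.4% lower, so the members' share was near that of all genes. DESeq2 called 25, against 70.7% of all genes. Levels below are scaled over all 33 libraries, on which the cerebellum-to-cortex ratio lies 0.05 log2 above that of the fit.

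The cytosolic chaperones differed in both directions, and Hsph1 had the lowest value of the members tested. Hsph1 had 136, 139, 116 and 126 CPM in WT cerebella, against 302, 283, 326 and 311 CPM in WT cortices. No library came near the other group, and the log2 fold change was -1.29 (SE 0.0533, edgeR adjusted p = 2.85e-16). Dnajb1 was also lower in cerebellum, at 25.7 ± 2.25 against 42.6 ± 1.89 CPM (SD, n = 4 each; log2 fold change -0.78). Hspa8 had 230, 194, 211 and 219 CPM in WT cerebella, against 128, 126, 123 and 132 CPM in WT cortices, also far apart, at 0.70 (SE 0.0501, edgeR adjusted p = 1.07e-11). Hsp90aa1, the inducible cytosolic HSP90, was higher too, at 150 ± 7.63 against 99.8 ± 7.5 CPM (log2 fold change 0.53). Hsph1 and Hspa8 moved together between replicate libraries in experiments 1A and 1B (r = 0.94 and 0.87) and hardly in experiment 2 (r = 0.19). Between the tissues of experiment 2 they had opposite signs.

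Among ER folding genes 3 were higher and 5 lower in cerebellum. Hsp90b1 was higher, at 392 ± 14.9 against 294 ± 19.5 CPM (log2 fold change 0.37, SE 0.0459), as were Dnajc3 (0.29) and Hspa5 (0.25). Hyou1 was lower, at 73.9 ± 3.91 against 102 ± 2.45 CPM (log2 fold change -0.51, SE 0.0509), as were Pdia6 (-0.47), Manf (-0.31), Sdf2l1 (-0.59) and Calr (-0.13). Without WT cortex replicate 4 the calls of Calr (edgeR adjusted p = 0.0922) and Sdf2l1 (0.0573) were lost, and without WT cerebellum replicate 3 that of Sdf2l1 (0.0566).

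The sensors divided. Eif2ak3 had 49.5, 51.7, 51.5 and 50.3 CPM in WT cerebella, against 33.3, 35.5, 32.2 and 33.6 CPM in WT cortices, and was higher in every library, with a log2 fold change of 0.54 (SE 0.0602, edgeR adjusted p = 2.41e-08). Ern1 was higher as well (0.65), while Atf6 (-0.22) and Xbp1 (-0.16) were lower, and the call of Xbp1 was lost without WT cerebellum replicate 1 or 3 or WT cortex replicate 3 (edgeR adjusted p = 0.0881, 0.0868 and 0.0713). With no filter on low values the calls of Xbp1 and Calr were lost (edgeR adjusted p = 0.138 and 0.121). In the degradation arm Edem1 (-0.37) and Sel1l (-0.26) were lower and Herpud1 (0.17) higher, the last not by DESeq2 (adjusted p = 0.0737) and not by edgeR without WT cortex replicate 1 or 4 (adjusted p = 0.0594 and 0.0821).

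In the integrated stress arm both subunits that direct the eIF2 phosphatase were higher in cerebellum. Ppp1r15a, the inducible subunit, averaged 18.5 ± 2.09 CPM in WT cerebella and 10.4 ± 1.36 CPM in WT cortices (SD, n = 4 each; log2 fold change 0.78, edgeR adjusted p = 1.81e-06), and Ppp1r15b, the constitutive one, 94.7 ± 2.74 and 67.8 ± 4.49 CPM (0.43). Chac1 was lower, at 3.41 ± 0.418 against 5.88 ± 0.563 CPM (-0.83), as were Asns (-0.26) and Ddit3 (-0.33), while Atf4 (0.15) and Sesn2 (0.32) were higher. The call of Ddit3 was lost without WT cerebellum replicate 1 or WT cortex replicate 4 (edgeR adjusted p = 0.0544 and 0.108). Of the further pathway genes those with the smallest p were Fkbp4 (1.17), Vldlr (0.81), Hspd1 (1.07) and Hspa4l (0.71), higher in cerebellum, and the cystine carrier Slc7a11 (-1.41), Hspa2 (-1.37), Dnajb5 (-0.81) and Hspa12a (-0.80), lower. By list, 8 of 26 tested for ER folding and degradation were higher and 9 lower. For the integrated stress response 10 of 19 were higher and 4 lower, and of heat-shock factor targets 11 of 27 higher and 7 lower. Of all genes 37.3% were higher and 37.4% lower, and no list was tested as a set. Astrocyte and microglia marker sums differed too. They were 4030 to 4250 and 72.6 to 80.6 CPM in WT cerebella, against 1790 to 1950 and 255 to 276 CPM in WT cortices. Choroid plexus markers summed to 69.4, 17.2, 367.5 and 410 CPM in WT cortices 1 to 4, against 35.8 to 41.1 CPM in WT cerebella. The part of these cell types in the tissue differences was not tested.

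**Figure D5:**
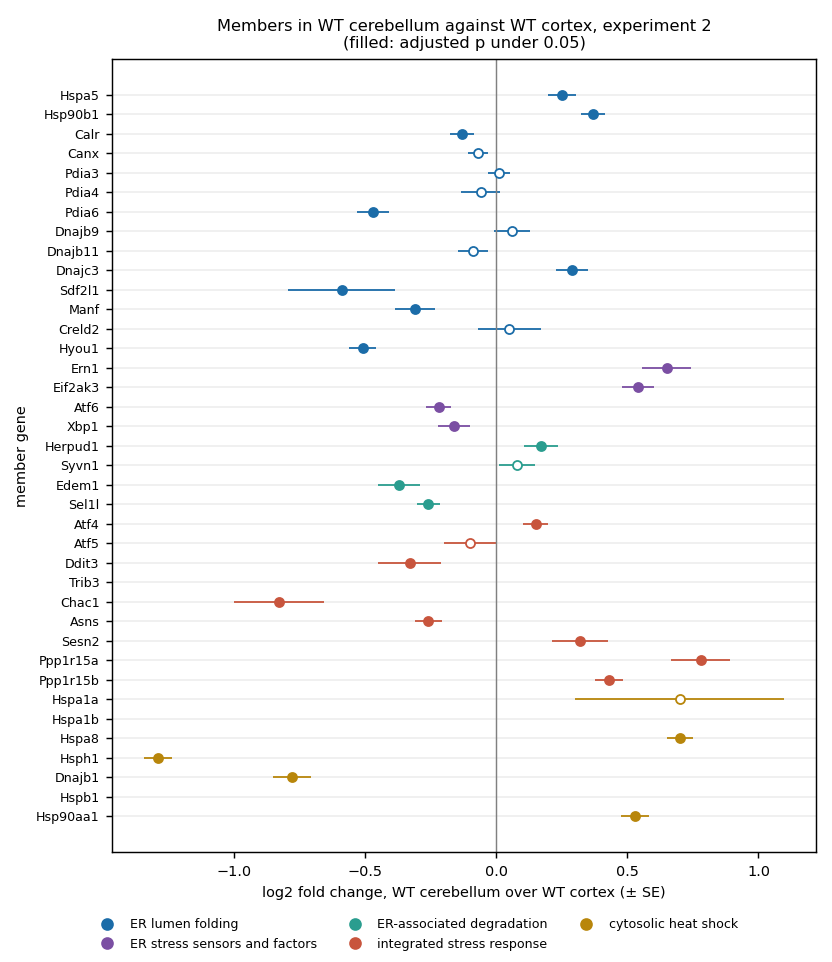
Log2 fold change of WT cerebellum over WT cortex with its SE (horizontal axis) for the members (rows, coloured by role), filled where the edgeR adjusted p is under 0.05. Hsph1 (-1.29) lies lowest and Ppp1r15a (0.78) highest, and filled points stand on both sides of 0 within every role.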

How the data were processed

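The authors deposited 1 table for each of 5 mutant comparisons, with whole-number counts of reads per gene in each library, and with the authors' DESeq2 columns for mean signal, log2 fold change, test score and p-value, per the file headers. Alignment with STAR 2.4, counting with HTSeq 0.6.1p1 and testing with DESeq2 1.10 on mm10 are named in the submitters' processing notes; the strand setting, the treatment of multi-mapping reads and the gene annotation are stated by no source used here. A displaced record of the CyrMut table was put back in place, and 1 count differed between the 2 copies of the WT columns of experiment 1B.

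Counts were tested with edgeR 4.0.16 (R 4.3.3; TMM scaling, genes kept by filterByExpr at a minimum count of 10, quasi-likelihood test, Benjamini-Hochberg adjustment over all genes, threshold 0.05), with only the libraries of the comparison in each fit. The SE was taken from the fold change and its F value. DESeq2 1.42.0, no filter, other scaling, a replicate block, a choroid plexus covariate (chosen after seeing the data) and leaving out single libraries were tried. The fits were tested on simulated data. CPM levels use TMM sizes over 33 libraries, and log2 CPM a prior count of 1. No 2 replicate libraries of the same group agreed within sampling noise, and libraries of different groups were not compared in this way. Members and lists were chosen with earlier results of these data known. Values by library are given, by rule, for members past the threshold in a mutant comparison, for at most 3 per comparison whose groups do not overlap, and for Hspa5, Hsph1, Atf4 and Dnajb1. Between tissues the rule names the 8 members and the 4 further pathway genes with the smallest p in each direction, and it names the 5 genes most like Hspa5, Hsph1 and Atf4; other genes described were chosen after their values were seen. Depth was 6.89 to 24.94 M counts per library, so low genes carry the most counting error, and p-values measure only the spread between these libraries.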

Additional observations from a re-analysis of the deposited data

Results flagged for a closer look

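Of 228 sets of 4 libraries (a member in a group), 5 had 1 library far from the other 3 by Dixon's criterion (the gap to the nearest library over the whole range), fewer than the 1 in 20 that chance gives. Edem1 had 19.4 CPM in CyrMut replicate 4, below 25.8 to 26.2 CPM in the other CyrMut cerebella. Dnajb9 had 48.8 CPM in Mir7DKO replicate 3 of experiment 1B, above 43.7 to 44.5 CPM in the others. Herpud1 had 44.6 CPM in WT replicate 2 of experiment 1B, below 48.9 to 49.1 CPM in the others, and that library had the highest Hspa5 of its group. Hsph1 had 127 CPM in WT replicate 4 of experiment 1B, below 167 to 174 CPM in the others, and that library also had the lowest Hspa5. Hspa1a had 2.84 CPM in WT cerebellum replicate 1 of experiment 2, above 1.15 to 1.37 CPM in the others, on few counts.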

How the results depend on the processing

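Members called stayed at 0 in CyrMut, CyrKO and Mir7DKO of experiment 1B under every alternative run. In Mir7DKO cerebella of experiment 2 they were 7 with no filter (0.808% of all genes), 2 with DESeq2 and 0 to 6 without single libraries. In cortex they were 1 (Hspa5) with no filter and 1 (Hspa5, edgeR adjusted p = 0.00211; 0.146% of all genes) with the replicate block, and 0 without single libraries. All genes called moved more. With no filter they were 43 in CyrMut, 10 in CyrKO, 4 and 184 in Mir7DKO cerebella of experiments 1B and 2, 48 in cortex, and 74 and 19 for the differences of effect between tissues and experiments. With DESeq2 they were 4 in CyrMut, 5 in Mir7DKO of experiment 1B, and 12 and 3 for those differences. Without single libraries they were 1 to 17 in CyrMut, 3 to 10 in CyrKO, 0 to 2 and 3 to 70 in Mir7DKO cerebella of experiments 1B and 2, and 4 to 11 in cortex. The choroid plexus covariate gave 18 in Mir7DKO cerebella of experiment 2 and turned Pdia6 to -0.01. The cause of these moves was not tested.

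Whether replicate numbers pair the samples is not settled. No comparison had every same-numbered correlation over 0.1, which does not exclude pairing. In cortex each Mir7DKO library correlated best with its own number (0.09, 0.10 and 0.05). With the replicate block 2 genes were called in Mir7DKO of experiment 1B and 20 in cortex, and the call of no member other than Hspa5 changed.

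Median r was -0.11 for sensors, 0.66 for degradation and 0.61 for heat shock without experiment 2, and -0.09 to 0.11 for sensors without single libraries. Atf4 with Ddit3 and Hspa5 with Atf4 turned to -0.02 and -0.06 without experiment 1B. Without single libraries Atf4 with Trib3 ranged over -0.07 to 0.19 and Atf4 with Ddit3 over -0.03 to 0.16, and between tissues the log2 fold change of Pdia3 over -0.01 to 0.03 and of Creld2 over 0.00 to 0.11. Depth limits Trib3, Chac1, Hspa1a, Hspa1b and Hspb1.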

Other observations

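Genes outside the members also varied with them between replicate libraries. Cirbp, an RNA-binding protein raised by cold, was the gene most opposite to Hsph1 of 9787 ranked, at r = -0.85 (rho -0.82; being picked as the extreme it is given with no test), with -0.91, -0.90 and -0.57 within experiments 1A, 1B and 2 and -0.80 without the 2 farthest libraries. Rbm3, the other cold-inducible gene, ran the other way, at r = 0.59 with Hsph1 (rho 0.50, permutation adjusted p = 0.00912 over 14 relations chosen after their values were seen), with 0.87, 0.82 and -0.36 by experiment. The 14 relations include those of Cirbp, which lowers the other adjusted p-values. Because of the choice, the p-values in this paragraph only describe and are no valid test. The clock gene Per2 had r = 0.68 with Hsph1 (rho 0.65, permutation adjusted p = 0.00238), with 0.96, 0.67 and 0.34 by experiment and 0.61 without 2 libraries. Per1 had r = 0.61 with 0.93, 0.76 and -0.41 by experiment, so its sign was not shared. Dbp had r = -0.45 with Hsph1, with 0.08, -0.82 and -0.25 by experiment (permutation adjusted p = 0.0664). The time of day and the body temperature at which tissue was taken are stated by no label, and their part was not tested.

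The genes most opposite to Hspa5 were H1f0 (r = -0.92), Insig1 (-0.88), which retains sterol-sensing proteins in the ER, and Elavl3 (-0.85).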
